A study of Mus musculus with 6 samples.

Results

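The 48 genes described here build, reshape, crosslink, pull on and anchor actin filaments. They were taken by name, as rows whose NCBI Gene number maps to the symbol, and all 48 had a row among the 17567 rows of the count tables. Transcripts were measured in mouse immature dendritic cells, grown from marrow of male C57BL/6 mice (6 weeks old) in 10% serum with GM-CSF at 20 ng/mL and IL-4 at 10 ng/mL, collected on day 6 and purified on beads for CD11c, the integrin that marks dendritic cells. The treatment label of the controls reads control, and the other group was exposed to 100 µM H2O2 for 24 h to imitate oxidative stress. The labels do not tell whether replicate libraries derive from different animals or culture dishes, so p-values measure only the spread between these libraries, which may be technical.

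Each group has 3 labelled samples, but the values of H2O2 replicate 3 equalled those of H2O2 replicate 1 in every row, and this pair was counted as 1 library. The comparison therefore rests on control replicates 1, 2 and 3 (titled imDC, imDC_r1 and imDC_r2) and H2O2 replicates 1 and 2 (titled imDC-H2O2 and imDC_H2O2_r1). Library totals ranged from 16232604 to 16672491 estimated counts, and the 48 genes took between 3.65% and 4.19% of them. Control replicate 1 and H2O2 replicate 1, called set A, carried 102.1 and 95.1 CPM (counts scaled to a common library size) of 4 Y-linked transcripts. The other 3 libraries, called set B, carried between 0.121 and 0.453 CPM, although all mice were labelled male. H2O2 was therefore compared with control within the sets, by a term for the set in the fit.

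Actin monomers join into filaments that push the membrane forward, and the Arp2/3 complex, switched on by WASP and WAVE proteins downstream of the small GTPases Cdc42 and Rac1, starts new branches on existing filaments. Formins and Ena/VASP proteins lengthen filaments, cofilin severs them, and profilin and thymosins hold the monomers. Bundling proteins stiffen the filaments, myosin II under RhoA and its kinases contracts them, and talin and vinculin tie them to integrins. Immature dendritic cells use this machinery to take up antigen and to crawl, and maturing ones extend fascin-bundled dendrites.

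All 48 genes passed the filter on low counts. Levels between genes were compared per length, as the mean control CPM divided by the kilobases of merged exons in GENCODE M21 basic transcripts. Actg1 (cytoplasmic gamma-actin) stood highest at 4069 CPM per kb. It was followed by Tmsb4x, the monomer-binding thymosin beta-4, at 3307 and Actb (beta-actin) at 2925 CPM per kb. The next was the bundling protein gene Lcp1 (L-plastin) at 625 CPM per kb, well below these 3. At the low end were the cofilin kinase genes Limk2 and Limk1, at 11.5 and 8.89 CPM per kb, and the filament elongation gene Enah at 3.28 CPM per kb.

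**Figure D1:**
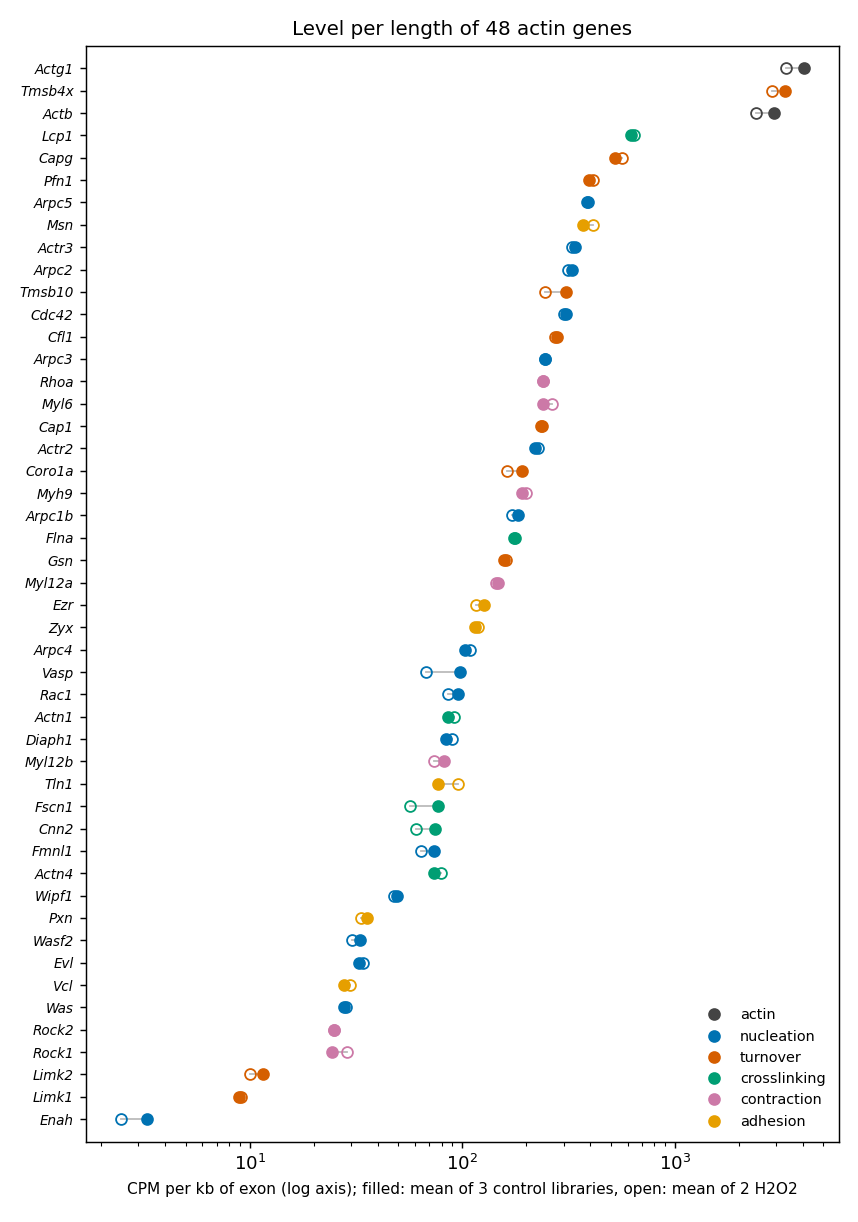
Level per length of the 48 genes, in CPM per kb of exon on a log axis, ordered by the mean of the 3 control libraries (filled points), with the mean of the 2 H2O2 libraries as open points and colours for the functional class. Actg1, Tmsb4x and Actb stand apart at the top, and their open points lie to the left of the filled ones.

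With H2O2, 3 of the 48 transcripts were called lower and 1 higher. Fscn1 (the bundling protein fascin), Vasp (a filament elongation factor) and Cnn2 (calponin 2, an actin-binding protein) fell, and Tln1 (talin 1, the integrin-activating linker) rose. The threshold for a call was 0.05 on p-values from edgeR's quasi-likelihood test, adjusted by Benjamini-Hochberg over all 12209 genes tested. Fewer cells of a type and less RNA per cell cannot be told apart in such bulk samples. Of all tested genes 8.54% were called, 3.93% higher and 4.61% lower. The 8.33% called among the 48 is near that background. The median log2 change of the 48 was -0.02, against 0.01 over all tested genes. Of the 48, 36 lay within 0.2 of 0 on the log2 scale, as did 6960 of all 12209 tested genes. For 43 of the 48 (89.6%) the 95% interval of the change lay within 0.5 on either side of 0, as it did for 56.9% of all tested genes. These shares are not matched for level. The lowest control mean was 30.8 CPM among the 48 and 0.081 CPM among all tested genes. None of the 4 was called without the set term, where edgeR called 0 genes of any kind. In that fit 853 genes, 2 of the 48 among them, fell under 0.05 before adjustment, and DESeq2, run with the set term, called 897. A fit with the set term that keeps only H2O2 replicate 1 compares it with control replicate 1, so it rests on 1 library against 1. No member was called when H2O2 replicate 2 was left out.

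**Figure D2:**
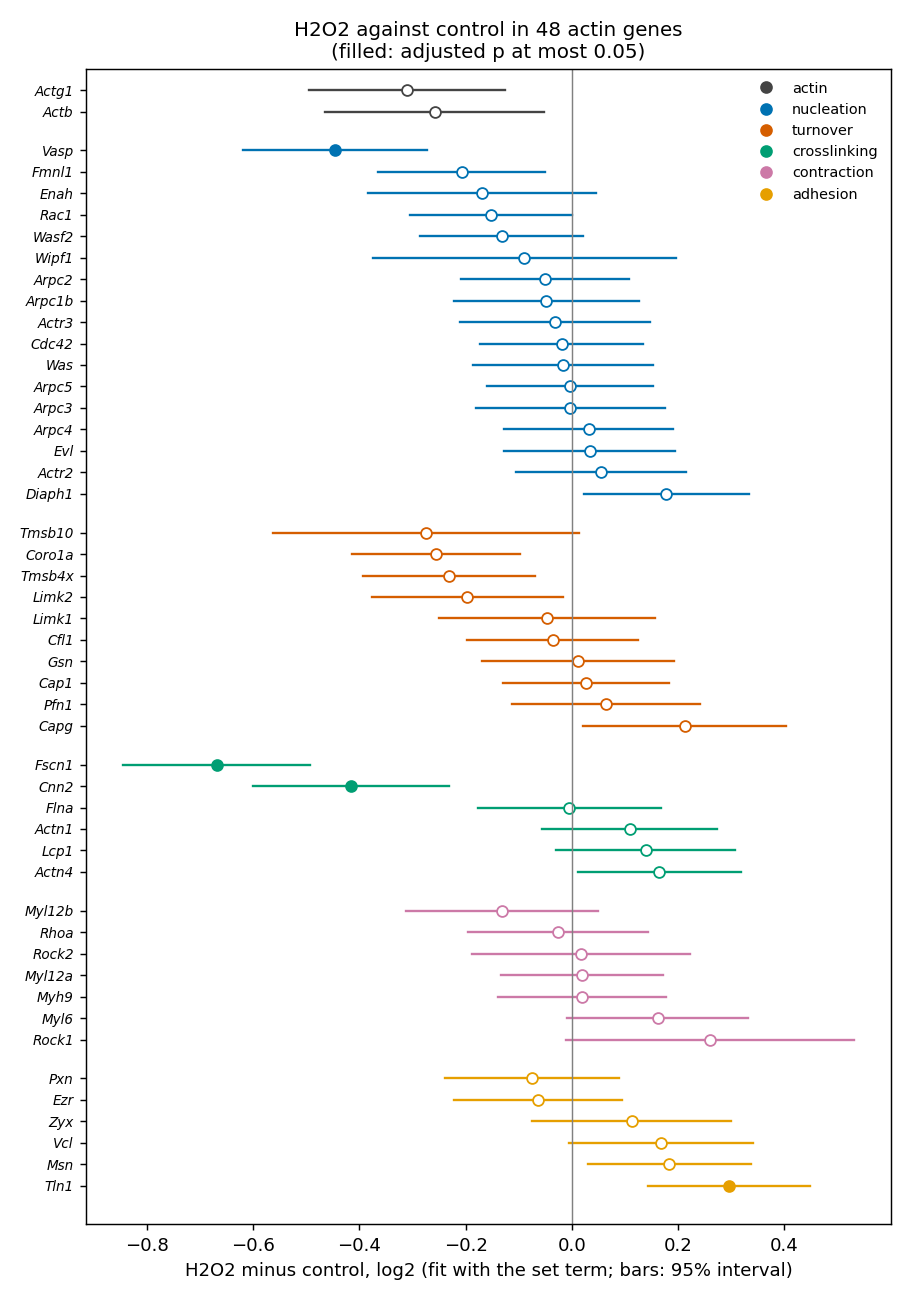
Change of each of the 48 transcripts with H2O2, as H2O2 minus control on the log2 scale from the fit with the set term, with 95% intervals, ordered by class and value. The 4 filled points passed an adjusted p of 0.05 by edgeR, and both actin genes lie left of 0 while not passing it.

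The cytoplasmic actins themselves, the monomers of every filament, were lower in both H2O2 libraries than in any control library, but neither was called. Actb (chromosome 5, 142903115 to 142907976, GRCm38.p6) measured 5237, 5406 and 6202 CPM in control replicates 1, 2 and 3, and 4575 and 4695 CPM in H2O2 replicates 1 and 2. Its H2O2 libraries were closer to each other than its controls were, and its log2 change was -0.26 ± 0.087 (SE; 95% interval -0.46 to -0.05; adjusted p = 0.113 by edgeR). Actg1 (chromosome 11, 120345687 to 120348495) measured 8683, 7834 and 7309 CPM in the controls and 6626 and 6370 CPM with H2O2. Its change of -0.31 ± 0.078 had an adjusted p of 0.0574 by edgeR, and it was called lower by DESeq2 (adjusted p = 0.0169), by limma-voom (0.045), and by edgeR with upper-quartile factors (0.0431) or library totals alone (0.024). Over the alternative fits its adjusted p ranged from 0.0169 to 0.706. Summed, both actins took 13920, 13240 and 13511 CPM in the controls against 11201 and 11065 CPM with H2O2. The H2O2 libraries of 13 of the 48 genes lay all above or all below the control libraries, as did those of 23.7% of all tested genes.

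Reads of near-identical or overlapping genes may have been shared, because the counting method is not given in the sources used here. Of the 50-base words in Actg1 transcripts, 45.6% also occur in a transcript of another gene entry in GENCODE M21, and 12.2% of those in Actb do. The share was over 10% for 10 of the 48 genes, among them Actr3 at 44.5% and Tmsb10 at 27.0%, and it was 0 for Fscn1, Vasp, Cnn2 and Tln1. For Myl12b (30.6%) and Myl12a (19.1%) the entry that shares most is an overlapping one on the same strand, also named Myl12b. Strand handling is also not given, and 54.8% of the exon bases of Rac1 and 39.7% of those of Vcl overlap exons of a gene on the opposite strand (Daglb and Ap3m1).

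The RefSeq promoter table for GRCm38.p6 held 57 promoters, each from 250 bases before to 50 after a start, for 43 of the 48 genes. Actb, Rac1, Rock1, Diaph1 and Pxn had no entry, so their promoters were not searched. The 57 were searched on both strands for the CArG box, the site of the serum response factor that is known for driving actin genes. They were also searched for TATAAA and GGGCGG, and the motifs can overlap. A CArG box was found in 5 of the 57 (8.77%), in Actg1, Cnn2, Vcl, Myl6 and Arpc4, against 1.63% of the 32851 promoters in the table. TATAAA was found in 4 of the 57 (7.02%) against 13.6% of all, and GGGCGG in 42 (73.7%) against 35.7%. The Myl6 box was in 1 of its promoters and absent from the other, and the Arpc4 box began at the first base of its window. The log2 changes of the 5 genes with a CArG box were -0.42 for Cnn2 and -0.31 for Actg1, 0.03 for Arpc4, 0.16 for Myl6 and 0.17 for Vcl. Cnn2 was the one called among them. The 95% intervals were -0.127 to 0.191 for Arpc4, -0.009 to 0.332 for Myl6 and -0.005 to 0.34 for Vcl. These 3 intervals reach both signs, so whether the 5 genes share a direction is not settled. Shown 5′ to 3′ are the promoters of Actg1 (chr11:120348446-120348745, minus strand), Cnn2 (chr10:79988350-79988649, plus strand) and Vcl (chr14:20929148-20929447, plus strand), which compare 2 low values with 1 that is not, and that of Fscn1 (chr5:142960105-142960404, plus strand), the member with the largest change. Capitals mark the CArG box in the first 3 and TATAAA in Fscn1, which holds no CArG box in this window.
Actg1: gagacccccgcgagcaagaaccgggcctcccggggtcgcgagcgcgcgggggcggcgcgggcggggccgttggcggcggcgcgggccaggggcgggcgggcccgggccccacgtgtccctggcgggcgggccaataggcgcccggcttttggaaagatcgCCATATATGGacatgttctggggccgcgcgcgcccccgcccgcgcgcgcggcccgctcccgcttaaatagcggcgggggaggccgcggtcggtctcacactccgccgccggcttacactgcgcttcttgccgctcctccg
Cnn2: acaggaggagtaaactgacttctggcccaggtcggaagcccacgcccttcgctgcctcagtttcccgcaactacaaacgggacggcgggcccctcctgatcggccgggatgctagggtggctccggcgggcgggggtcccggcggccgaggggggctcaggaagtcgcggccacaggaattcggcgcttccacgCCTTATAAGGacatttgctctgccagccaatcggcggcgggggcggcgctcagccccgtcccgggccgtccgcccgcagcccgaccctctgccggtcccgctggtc
Vcl: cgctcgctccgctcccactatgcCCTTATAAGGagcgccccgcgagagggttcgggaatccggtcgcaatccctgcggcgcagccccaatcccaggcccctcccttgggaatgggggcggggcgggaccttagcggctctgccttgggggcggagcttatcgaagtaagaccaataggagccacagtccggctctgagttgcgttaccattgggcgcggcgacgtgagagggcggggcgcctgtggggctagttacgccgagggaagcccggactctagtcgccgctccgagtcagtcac
Fscn1: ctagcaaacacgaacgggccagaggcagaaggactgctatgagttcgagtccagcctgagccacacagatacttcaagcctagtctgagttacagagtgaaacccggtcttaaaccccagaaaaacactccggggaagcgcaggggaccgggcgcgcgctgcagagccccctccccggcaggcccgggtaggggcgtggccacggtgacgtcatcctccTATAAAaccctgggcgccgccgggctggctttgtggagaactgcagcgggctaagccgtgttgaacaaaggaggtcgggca
The CArG box began 90 bases before the start in Actg1, 56 in Cnn2 and 227 in Vcl, and TATAAA began 31 bases before it in Fscn1.

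Of the 17 genes that nucleate and lengthen filaments, 1 fell and none rose. Vasp (chromosome 7, 19256929 to 19271854), which shields growing filament ends from capping, measured 170.3, 235.8 and 241.5 CPM in control replicates 1, 2 and 3. With H2O2 it measured 133.5 CPM in replicate 1 and 167.0 CPM in replicate 2. Both H2O2 libraries lay below every control, narrowly in the case of H2O2 replicate 2 and control replicate 1, which belong to different sets. The fall was 1.36-fold (log2 -0.45 ± 0.073, adjusted p = 0.024 by edgeR). Within the sets it was -0.35 (A) and -0.51 (B). The adjusted p by edgeR was 0.0762 without control replicate 3, 0.14 without H2O2 replicate 2, 0.0535 with the replicate block and 0.0549 without a low-count filter.

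The relatives of Vasp did not pass the test. Evl stood at 0.03 ± 0.068 on the log2 scale and Enah at -0.17 ± 0.090. Enah measured 18.5, 52.5 and 52.5 CPM in the controls and 18.3 and 43.8 CPM with H2O2, so its level followed the set far more than the treatment. The 7 genes of the Arp2/3 complex, Arpc1b, Arpc2, Arpc3, Arpc4, Arpc5, Actr2 and Actr3, lay between -0.05 and 0.06 on the log2 scale. Their 95% intervals together reached from -0.22 to 0.22, so changes beyond those bounds are outside every interval. Actr3, for example, measured 844.6, 907.3 and 952.7 CPM in the controls and 765.3 and 963.6 CPM with H2O2.

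The activators of the complex were also not called. Was, the blood-cell WASP, stood at -0.02 ± 0.071, its partner Wipf1 at -0.09 ± 0.120 and the WAVE subunit gene Wasf2 at -0.13 ± 0.065, all log2 changes. Cdc42, the most abundant of the class in CPM, measured 871.9, 924.6 and 948.4 CPM in the controls and 861.0 and 923.9 CPM with H2O2. Its log2 change was -0.02 ± 0.065. Rac1 measured 396.1, 405.7 and 403.9 CPM and then 358.4 and 362.8 CPM, below every control, with a log2 change of -0.15 ± 0.064 (adjusted p = 0.179 by edgeR). The formin genes pointed in different directions, Fmnl1 at -0.21 ± 0.066 (adjusted p = 0.0996 by edgeR) and Diaph1 at 0.18 ± 0.065 (adjusted p = 0.135).

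No gene among the 10 of filament turnover and monomer supply was called by edgeR, DESeq2 or limma-voom. Of the 10, 4 had an unadjusted p under 0.05 by edgeR, as did 3398 of all 12209 tested genes and 15 of the 48. Cfl1, the cofilin that severs filaments, measured 690.0, 691.5 and 718.3 CPM in the controls and 698.4 and 668.7 CPM with H2O2. Its log2 change of -0.04 ± 0.068 had a 95% interval of -0.20 to 0.13. Pfn1, the profilin that feeds monomers to growing ends, stood at 0.06 ± 0.075, and Cap1, which recycles cofilin-bound monomers, at 0.03 ± 0.066. The cofilin-inactivating kinase genes Limk1 and Limk2 stood at -0.05 ± 0.086 and -0.20 ± 0.076.

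Tmsb4x, the most abundant gene of this class, measured 4820, 4361 and 4422 CPM in the controls and 4179 and 3691 CPM with H2O2. Its H2O2 libraries lay below all controls, and its log2 change was -0.23 ± 0.068 (adjusted p = 0.0819 by edgeR). Tmsb10, the related thymosin beta-10, had the largest change of the class, -0.27 ± 0.121, and was not called. It measured 330.7, 484.3 and 367.9 CPM in the controls and 258.1 and 367.5 CPM with H2O2. Each H2O2 library lay below the controls of its set, narrowly in set B, and the groups overlap as a whole. Coro1a, the coronin of blood cells, measured 379.1, 352.6 and 370.4 CPM and then 314.8 and 305.2 CPM, a change of -0.25 ± 0.067 (adjusted p = 0.0635 by edgeR). Library totals alone, with no TMM factors, gave Coro1a and Tmsb4x adjusted p-values of 0.0311 and 0.045 by edgeR, and upper-quartile factors gave Coro1a 0.0475. The capping and severing genes stood at 0.21 ± 0.080 for Capg and 0.01 ± 0.076 for Gsn (gelsolin).

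Among the 6 crosslinkers 2 fell and 4 were not called. Fscn1 (chromosome 5, 142960355 to 142973189) measured 347.6, 127.6 and 139.8 CPM in control replicates 1, 2 and 3, and 221.4 and 83.3 CPM in H2O2 replicates 1 and 2. The groups overlap as a whole, because set A stood above set B, but within each set the H2O2 library was lower. The fall was 1.59-fold (log2 -0.67 ± 0.074, 95% interval -0.84 to -0.49, adjusted p = 0.0127 by edgeR). Within the sets it was -0.65 (A) and -0.68 (B). The replicate block, which makes the same comparison as leaving out control replicate 3, gave an adjusted p of 0.0097 by edgeR. Fscn1 stayed called in 12 of the 14 alternative fits, this one among them. The exceptions were the fit without the set term (-0.43, adjusted p = 0.917) and that without H2O2 replicate 2 (-0.65, adjusted p = 0.0994).

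Cnn2 (chromosome 10, 79988600 to 79995400) measured 264.5, 138.4 and 149.5 CPM in the controls and 185.5 and 113.6 CPM with H2O2. As for Fscn1, set A stood above set B and H2O2 was lower within each set. The fall was 1.33-fold (log2 -0.42 ± 0.078, adjusted p = 0.0284 by edgeR). Within the sets it was -0.51 (A) and -0.34 (B). The adjusted p by edgeR was 0.0961 without control replicate 3, 0.117 without H2O2 replicate 2, 0.0733 with the replicate block and 0.0631 without a low-count filter. Lcp1, the most abundant crosslinker, measured 1989, 2844 and 3061 CPM and then 2184 and 3257 CPM. It stood at 0.14 ± 0.071 with an adjusted p of 0.254 by edgeR. The alpha-actinin genes Actn1 and Actn4 stood at 0.11 ± 0.069 and 0.16 ± 0.065 and Flna (filamin A) at 0.00 ± 0.072, all log2 changes.

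**Figure D3:**
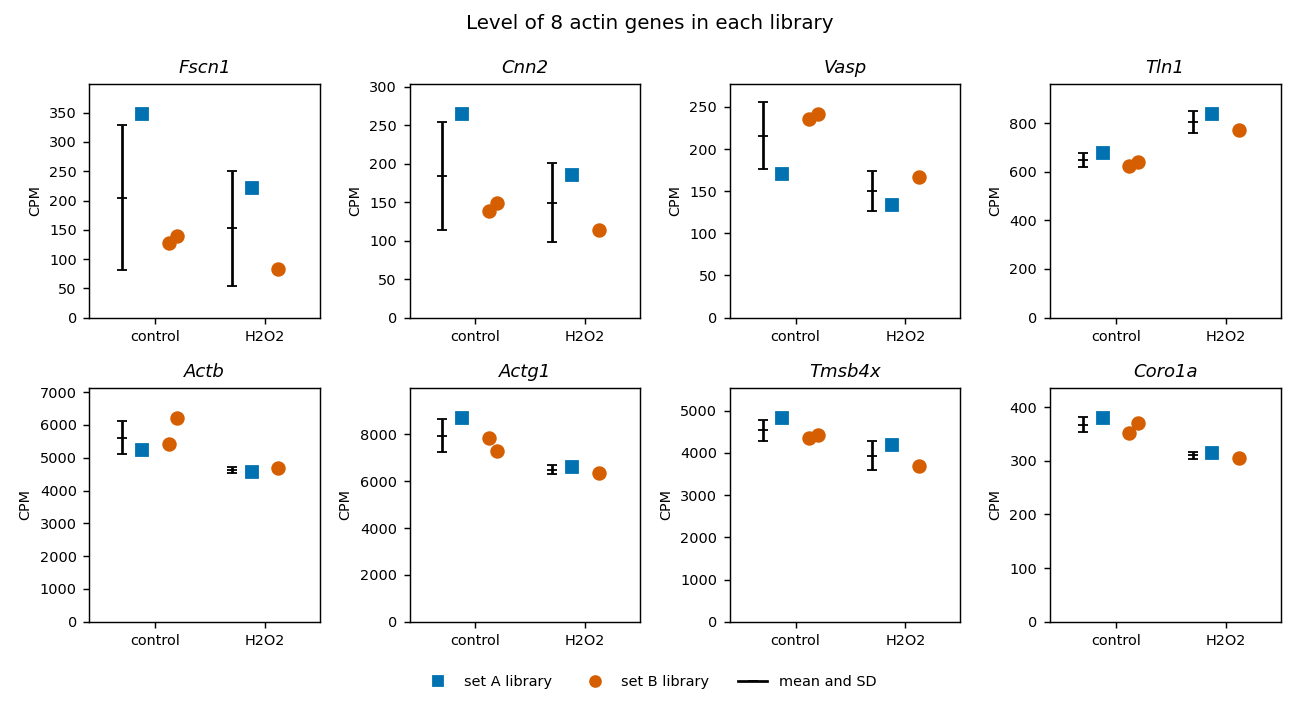
Level in CPM of 8 of the genes in each library, with set A as squares, set B as circles and the mean with SD in black for each group (3 control and 2 H2O2 libraries), all axes from 0. Fscn1 and Cnn2 are separated mainly by set, with the H2O2 library lower in each, while the other 6 genes show no overlap between groups.

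Contraction genes gave no call among 7 by edgeR, DESeq2 or limma-voom. None of the 7 had an unadjusted p under 0.05 by edgeR, where 3398 of all 12209 tested genes did. Myh9, the main non-muscle myosin II heavy chain, measured 1622, 1319 and 1337 CPM in the controls and 1594 and 1377 CPM with H2O2, and its log2 change was 0.02 ± 0.066. The light chain genes stood at 0.16 ± 0.072 (Myl6), 0.02 ± 0.064 (Myl12a) and -0.13 ± 0.076 (Myl12b), and Rhoa at -0.03 ± 0.072. Rock1, a kinase that activates myosin, had the largest value of the class, 0.26 ± 0.114. Its libraries measured 150.1, 160.7 and 161.4 CPM in the controls, 146.5 CPM in H2O2 replicate 1 and 223.6 CPM in H2O2 replicate 2, so that 1 library carries this value. Without H2O2 replicate 2 its log2 change was -0.04, and without control replicate 1 it was 0.47 and called (adjusted p = 0.0035 by edgeR). Its relative Rock2 stood at 0.02 ± 0.086.

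Of the 6 adhesion genes 1 rose and none fell. Tln1 (chromosome 4, 43531513 to 43562583) measured 677.9, 623.6 and 642.3 CPM in the controls and 837.5 and 773.5 CPM with H2O2. Both H2O2 libraries lay above every control, and the rise was 1.23-fold (log2 0.30 ± 0.064, adjusted p = 0.0401 by edgeR). Within the sets it was 0.30 (A) and 0.29 (B). The value kept its size over the 14 alternative fits, from 0.23 to 0.31, but its adjusted p lay between 0.0296 and 0.704, and 5 of the 14 called it. By edgeR the adjusted p was 0.114, 0.16, 0.0537 and 0.185 without control replicate 2, control replicate 3, H2O2 replicate 1 and H2O2 replicate 2, 0.124 with the replicate block, 0.0779 with library totals alone, 0.0535 with upper-quartile factors and 0.0679 without a low-count filter.

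The membrane linker Msn (moesin), the most abundant adhesion gene, measured 1314, 1470 and 1478 CPM in the controls and 1508 and 1660 CPM with H2O2. Its H2O2 libraries lay above all controls, at a log2 change of 0.18 ± 0.065 (adjusted p = 0.124 by edgeR). Its relative Ezr (ezrin) stood at -0.06 ± 0.067. Vcl (vinculin), which binds talin under load, stood at 0.17 ± 0.073 with an adjusted p of 0.19 by edgeR. Zyx and Pxn, which encode the adhesion scaffolds zyxin and paxillin, stood at 0.11 ± 0.079 and -0.07 ± 0.069.

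Within the sets, 31 of the 48 genes (64.6%) had the same sign of change, as did 65.5% of all tested genes. In 27 of the 48 each H2O2 library lay outside the controls of the same set, on the same side in both, as it did for 56.5% of all tested genes. Set A compares 1 library with 1, which allows no test. The difference between the sets in the H2O2 response was called for none of the 48 and for 2 of all tested genes by edgeR. That fit had 1 residual degree of freedom. In it 1674 of the 12209 tested genes had an unadjusted p under 0.05, and 3 of the 48 did. These were Rock1 (-0.03 in set A and 0.47 in set B, adjusted p = 0.0955), Wipf1 (-0.40 and 0.14, adjusted p = 0.0998) and Rock2 (-0.15 and 0.14, adjusted p = 0.296).

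**Figure D4:**
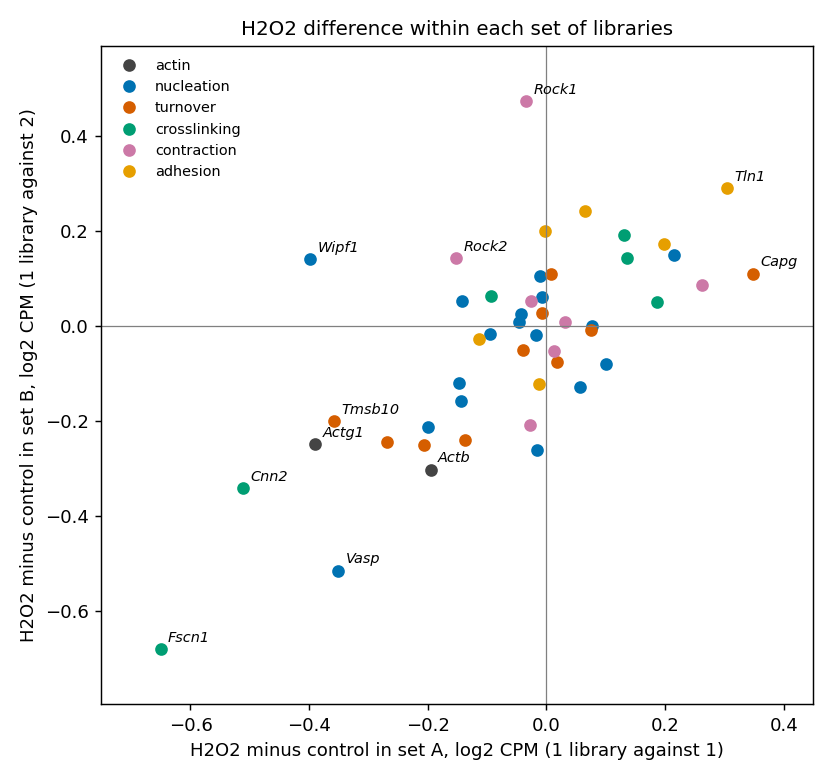
Difference of H2O2 from control in log2 CPM within set A (x axis, 1 library against 1) and within set B (y axis, 1 library against the mean of 2), 1 point per gene, coloured by class. Fscn1, Cnn2 and Vasp lie in the lower left and Tln1 in the upper right, while Rock1 and Wipf1 lie in the upper left.

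More of the 48 genes were called between the sets than with the treatment. In the same fit 7 were called higher in set A and 12 lower, where 19.1% of all tested genes were higher and 16.9% lower. For 33 of the 48 (68.8%) the set difference was larger than the H2O2 difference, as it was for 64.0% of all tested genes. Fscn1 was 2.62-fold higher in set A (log2 1.39 ± 0.072) and Cnn2 1.75-fold higher (log2 0.81 ± 0.076). Limk1, Wipf1, Was, Arpc4 and Myh9 were also higher there. Enah was 2.64-fold lower in set A (log2 -1.40 ± 0.094), and the adhesion genes Vcl, Zyx and Ezr were lower there at -0.60, -0.50 and -0.44. Lcp1, Diaph1 and Capg were lower at -0.57, -0.52 and -0.52, and Vasp, Actn4, Tmsb10, Cap1 and Myl12a were lower there too. Actb, Actg1, Cfl1, Pfn1 and Coro1a were not called between the sets. Without control replicate 1, 2 or 3 the number higher in set A was 4, 4 and 3.

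**Figure D5:**
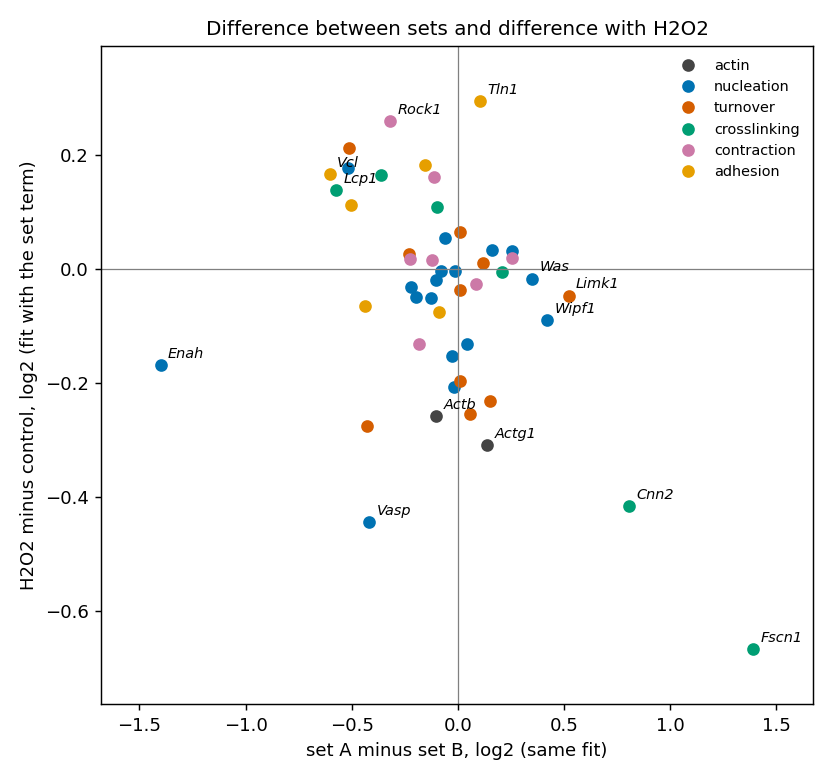
Difference between set A and set B (x axis) against the difference of H2O2 from control (y axis), both log2 values of the same fit, 1 point per gene, coloured by class. The points spread from -1.40 to 1.39 along x and from -0.67 to 0.30 along y, with Fscn1 and Enah at the ends of the x axis.

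A further 142 genes of the same machinery were listed, of which 131 were tested. Of these, 5 rose and 14 fell (14.5% called, beside the 8.54% of all genes), and their median log2 change was -0.02. Among the falls named here, the largest were in genes of cell division. Cit (citron kinase, of the cleavage furrow) fell by 1.52 ± 0.242 and Diaph3 (a formin) by 0.98 ± 0.154 on the log2 scale. Scin, which encodes the severing protein scinderin, fell by 0.76 ± 0.110 and Mylk, the myosin light chain kinase gene, by 0.60 ± 0.106. Elmo1, a partner of Rac activators, fell by 0.40 ± 0.082, the cofilin phosphatase gene Ssh2 by 0.40 ± 0.078, Marcksl1 by 0.35 ± 0.067 and the spectrin-binding gene Add3 by 0.35 ± 0.068. In adhesion, the integrin gene Itgal fell by 0.41 ± 0.067 and the kinase gene Fgr by 0.40 ± 0.082.

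The largest rise in this list was that of Myo5a, an organelle-carrying myosin. It measured 525.4, 433.9 and 392.4 CPM in the controls and 729.3 and 704.5 CPM with H2O2, a 1.56-fold rise (log2 0.64 ± 0.091, adjusted p = 0.0184 by edgeR) with no overlap between the groups. Rhob, a stress-inducible relative of RhoA, rose 1.48-fold (log2 0.56 ± 0.086). Dstn (destrin, a relative of cofilin) rose by 0.30 ± 0.064 and Twf1 (the monomer-binding twinfilin) by 0.33 ± 0.070 on the log2 scale.

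Markers of other cells and states moved with the groups and with the sets, and their part in these results was not tested. The CD11c gene Itgax lay between 1474 and 2177 CPM in all 5 libraries, and of 11 tested dendritic cell markers 6 fell. Cd209a was at 0 in control replicate 1 and both H2O2 libraries. Summed over 13 maturation markers, a list that leaves out Fscn1, the level was 9465 to 10618 CPM in the controls and 7938 to 9712 CPM with H2O2. Of them 4 fell and none rose. Between the sets 10 were higher in set A, as Fscn1 was, and 3 were lower there (Ccl17, Cd80 and Socs2). All 16 proliferation markers fell, from sums of 500 to 1582 CPM to sums of 282 and 584 CPM. Of 13 tested macrophage and monocyte markers 1 was called higher and 3 lower with H2O2. Between the sets 6 of these markers were called higher in set A and 2 lower. Their summed level, with 1 untested gene, was 29948 to 33217 CPM in the controls and 33279 and 39752 CPM with H2O2. Most of it was Chil3, at 27191, 31372 and 29922 CPM in the controls and 30671 and 37895 CPM with H2O2 (adjusted p = 0.0959 by edgeR).

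Some markers of granulocytes and platelets were called as well. Of 12 tested neutrophil markers 1 rose and 3 fell, and their sums were 634 to 1415 CPM in the controls and 1068 and 1934 CPM with H2O2. The gene that rose, Mmp8, made up 432, 784 and 697 CPM of these in the controls and 845 and 1236 CPM with H2O2, while Mpo, Ctsg and Cxcr2 fell. Of 8 mast cell and basophil markers 5 fell, with sums of 34.8 to 85.5 CPM in the controls and 11.3 and 26.9 CPM with H2O2. Between the sets 7 of these 8 were called lower in set A, as were 9 of the 12 neutrophil markers, and none of either list was called higher. Of 4 tested eosinophil markers 3 fell and 1 rose, with sums of 32.3 to 58.6 CPM and then 24.8 and 32.4 CPM. Of 3 tested erythroid and platelet markers 2 rose and 1 fell, with sums of 64.5 to 74.9 CPM and then 113 and 153 CPM. None of 4 tested fibroblast and endothelium markers was called by edgeR, 1 of them under 0.05 before adjustment, and 7 lymphocyte markers summed to at most 2.62 CPM in any library. The part of these lists in the results for the actin genes was likewise not tested.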

How the data were processed

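RNA libraries from the samples of both groups were read on DNA nanoballs, per the labels' protocols. The authors deposited 1 estimated count for each gene, without normalization as the file headers have it, and between 8.38% and 9.03% of a library's values were not whole. HISAT, Bowtie2 and the build GRCm38.p6 appear in the submitters' processing notes. The counter, strand setting and annotation: not given in the sources used here. A RefSeq table of that build named 17520 of the 17567 rows (the 47 others held 0.14% of the counts).

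Counts were rounded, filtered by edgeR's filterByExpr (minimum count 10, total 15), which kept 12209 genes, and scaled with TMM factors. H2O2 was tested against control with edgeR's quasi-likelihood F test and a set term, which left 2 residual degrees of freedom, with Benjamini-Hochberg adjustment over all tested genes. Standard errors are the absolute log2 change over the square root of F. Within-set values are log2 CPM differences with a prior count of 2. An exact permutation test over all 5 libraries could not go below 0.1 here, and one within the sets has fewer arrangements and a higher floor. The code was tested on simulated data. Named were all called members, Actb, Actg1 and Cfl1, and in each class the most abundant gene and that with the largest change, with up to 2 called genes each way per class of the wider list. Other members were named after their values were seen. The members, the lists and the set term were chosen with earlier results of these data known. The versions were edgeR 4.0.16, DESeq2 1.42.0 and limma 3.58.1, run under R 4.3.3. The alternatives were other scalings, filters, tests and designs, and leaving out each library.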

Additional observations from a re-analysis of the deposited data

How the results depend on the processing

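Of the 48 genes, 27 kept their direction in all 14 alternative fits. The 21 that changed sign in at least 1 of them had changes of at most 0.11 on the log2 scale in the fit with the set term, except Rock1. Among the genes given in full, Myh9 turned to -0.046 with library totals alone and to -0.0081 with upper-quartile factors. Leaving out 1 library at a time moved Myh9 between -0.028 and 0.055, Cfl1 between -0.084 and 0.015 and Rock1 between -0.037 and 0.48, each with the turned sign without H2O2 replicate 2. The median of the 48 ranged from -0.083 to -0.0019.

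The fit called 1 member higher and 3 lower (480 and 563 of all genes). Without the set term these counts were 0 and 0 (0 and 0 of all genes). The replicate block gave 0 and 1 (220 and 334), no low-count filter 0 and 1 (60 and 42), library totals alone 0 and 6 (384 and 910) and upper-quartile factors 0 and 5. With no filter 16398 genes were tested. With the other scaling, filter and tools (RLE size factors, 1 CPM in every library, DESeq2, limma-voom) 1 was higher and 3 or 4 lower. Leaving out 1 library at a time gave 0 to 2 higher and 0 to 3 lower (1 to 1248 and 0 to 816 of all genes). Without H2O2 replicate 2 no member was called, and 1 gene of all. That fit compares H2O2 replicate 1 with control replicate 1 alone. Without control replicate 1 or H2O2 replicate 1 the set term takes up the other library of set A, so those fits compare H2O2 replicate 2 with control replicates 2 and 3. Without control replicate 3 the comparison is the one that the replicate block makes. For set A against set B the same step gave 3 to 8 members higher and 9 to 13 lower (1419 to 2312 and 1432 to 2095 of all genes). The cause of these shifts was not tested. The replicate numbers are in accession order and pair the libraries in no label. Deviations from the group means correlated at 0.81 for replicates 1 and 0.714 for replicates 2, but also at 0.66 for control replicate 3 with H2O2 replicate 2. With 2 H2O2 libraries these deviations mirror each other. Each control's value with H2O2 replicate 1 is therefore the negative of that with H2O2 replicate 2. The signs follow sets A and B.

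With 5 libraries of near-equal depth, the median SE of the 48 log2 changes was 0.0714, against 0.11 over all tested genes. These medians are not matched for level either.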
